A study of Rattus norvegicus with 11 samples.

Results

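The 9 genes described here encode TRP channels (transient receptor potential channels) of sensory neurons: Trpv1, Trpv2, Trpv4, Trpa1, Trpm2, Trpm3, Trpm8, Trpc1 and Trpc6. They were chosen by name, as the rows of the deposited gene table with these symbols, and all 9 were found among its 16811 rows. All 9 passed the filter on low values (3 or more of the 11 libraries at 10 or above), and 12085 genes of the table did so. The data are RNA-seq libraries made from total RNA of the dorsal root ganglia of Sprague-Dawley rats, the ganglia in which sensory neurons have their cell bodies. In the SNL plus UNC0638 group (n = 3) rats had a spinal nerve ligation, a nerve injury that serves to model neuropathic pain, and then received UNC0638, an inhibitor of the histone methyltransferases G9a and GLP. The SNL group (n = 4) had the ligation alone, and the Sham group (n = 4), the control, had sham surgery. Ligated ganglia were taken from the left side in both groups and Sham ganglia from the right side, so that side and ligation cannot be told apart, and no group had UNC0638 without ligation. The labels state no dose, time after surgery, age or sex. They do not say whether replicates were separate animals or whether ganglia were pooled. The p-values therefore set group differences only against the spread of these libraries within groups, which may be technical.

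TRP channels are cation channels that open to temperature, chemical irritants, acid, osmotic or mechanical stimuli, or lipid messengers, and depolarise the cell with an inflow of sodium and calcium. In the ganglion TRPV1 is the receptor for capsaicin and noxious heat of peptide-containing nociceptors, TRPA1 the receptor for mustard oil and other electrophilic irritants, and TRPM8 the receptor for menthol and cold. TRPM3 is a heat-activated channel also opened by pregnenolone sulfate, TRPM2 is opened by oxidative stress through ADP-ribose, TRPV4 responds to osmotic and mechanical stimuli, and TRPC channels open downstream of receptors coupled to phospholipase C.

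Values are scaled counts, gene counts that the authors brought to a common library size. Totals were 9450045 to 11347920 per library, and an estimated 6127881 to 24367805 reads lay behind them. Markers of the labelled tissue were present. The 12 nociceptor markers tested had a mean log2 level of 10.8 to 11.6 in SNL plus UNC0638, 9.43 to 10.6 in SNL and 11.8 to 12.1 in Sham libraries, and the 9 pan-neuronal markers 11.5 to 11.8 in SNL plus UNC0638, 11.6 to 12.3 in SNL and 12.2 to 12.3 in Sham libraries. SNL plus UNC0638 replicate 1 stood apart. The summed value of 5 skeletal muscle genes was 67530 there, against 204.2 and 154.8 in replicates 2 and 3 of its group, 130.7 to 419.7 in SNL and 157.2 to 183.7 in Sham libraries. The summed value of 10 nerve injury genes was 4865 in that library, against 11540 and 14100 in replicates 2 and 3, 27600 to 39700 in SNL and 4932 to 5832 in Sham libraries. Their mean log2 level there was 6.629, against 9.165 and 9.504 in replicates 2 and 3 and 10.56 to 11.04 in SNL libraries. By that measure it lay slightly above the Sham libraries (6.303 to 6.555). The third libraries of SNL and of Sham also departed from their groups alike (r = 0.431 across genes, which are not independent replicates). Deviations of SNL replicate 3 also went with those of SNL plus UNC0638 replicate 1 (r = 0.429). They went against those of SNL plus UNC0638 replicate 3 (r = -0.446). Members were therefore also fitted without 3 libraries (SNL plus UNC0638 replicate 1, SNL replicate 3 and Sham replicate 3). A further fit, which does not follow from these correlations, had a term common to every SNL plus UNC0638 library and the third libraries of SNL and Sham (the shared library term).

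The 4 members that were higher in ligated ganglia with UNC0638 than with ligation alone were Trpv1, Trpv4, Trpm2 and Trpm3. Their promoters are shown so that the sequences before the starts of the members that moved together can be read beside their values. The sequences are the 250 bases before the gene start in RefSeq (GRCr8, a later build than the rn4 build of the counts), 5′ to 3′, and promoters were found for 7 of the 9 members (8 promoters, 2 of them of Trpm3, of which the first is shown). Capitals mark TGTGGT, the core letters bound by Runx factors, or GGGCGG, the letters bound by Sp1, on either strand, and the Trpm3 promoter shown holds neither.
Trpv1, chr10:58349686-58349935, + strand: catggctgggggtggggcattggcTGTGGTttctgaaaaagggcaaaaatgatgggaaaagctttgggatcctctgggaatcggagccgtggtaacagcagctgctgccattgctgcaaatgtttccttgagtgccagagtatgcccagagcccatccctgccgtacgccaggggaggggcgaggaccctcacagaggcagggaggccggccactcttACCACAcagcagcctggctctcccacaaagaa
Trpv4, chr12:47598938-47599187, + strand: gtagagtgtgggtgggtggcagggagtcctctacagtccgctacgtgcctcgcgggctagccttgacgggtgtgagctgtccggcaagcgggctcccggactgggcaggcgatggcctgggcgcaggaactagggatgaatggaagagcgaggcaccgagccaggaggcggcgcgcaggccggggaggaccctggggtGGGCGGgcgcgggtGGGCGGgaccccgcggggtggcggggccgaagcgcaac
Trpm2, chr20:10704222-10704471, + strand: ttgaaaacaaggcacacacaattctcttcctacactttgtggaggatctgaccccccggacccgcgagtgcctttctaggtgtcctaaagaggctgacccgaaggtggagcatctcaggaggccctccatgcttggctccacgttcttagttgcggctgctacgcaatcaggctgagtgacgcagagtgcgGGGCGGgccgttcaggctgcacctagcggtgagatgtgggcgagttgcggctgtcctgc
Trpm3, chr1:229099491-229099740, + strand: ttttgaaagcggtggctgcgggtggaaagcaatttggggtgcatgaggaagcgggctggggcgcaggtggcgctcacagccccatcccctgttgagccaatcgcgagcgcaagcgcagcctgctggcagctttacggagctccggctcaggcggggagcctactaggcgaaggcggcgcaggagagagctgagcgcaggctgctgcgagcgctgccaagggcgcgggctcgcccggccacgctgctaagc

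The letters TGTGGT were found at 2 places in the Trpv1 promoter, 226 to 221 bases before the start on the plus strand and 32 to 27 bases before it on the minus strand. Of 33469 rat promoters of this length, 14.5% held at least 1 match. GGGCGG was found at 2 places in the Trpv4 promoter, 52 to 47 and 38 to 33 bases before the start, and at 1 place in the Trpm2 promoter, 59 to 54 bases before it, against 30.5% of all promoters with a match. Neither TGACGTCA (the cyclic AMP response element, in 1.59% of promoters) nor TGANTCA (the AP-1 element, in 6.34%) was found in the 8 promoters of members. TGTGGT was also matched on the minus strand of the Trpv2 promoter, 187 to 182 bases before the start, and of the second Trpm3 promoter, 240 to 235 bases before it. The shown promoters of Trpv4, Trpm3 and Trpm2 held 25, 23 and 14 CpG dinucleotides and that of Trpv1 held 6. The second Trpm3 promoter held 6, those of Trpc6, Trpv2 and Trpm8 held 17, 7 and 3, and the median over all promoters was 5. A match of letters is a description of the sequence and does not show that a factor binds there.

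Ligation alone was compared with Sham to see what nerve injury changed. Of the 9 channel genes 4 fell (Trpv1, Trpa1, Trpm8 and Trpc1) and 1 rose, Trpv4. The fall was 5.83-fold for Trpv1, 2.03-fold for Trpa1, 1.60-fold for Trpc1 and 1.35-fold for Trpm8, on the log2(value + 1) scale on which all fold changes are given. Over all genes tested, 48.2% were called, 23.4% lower and 24.8% higher. The same 5 members were those whose libraries did not overlap between the groups, as for 43.3% of all genes (21.2% lower, 22.1% higher). The median log2 fold change of the 9 members was -0.35, against 0.00 over all genes. Ganglia are mixtures of cells, and in bulk RNA fewer cells of a type and less RNA per cell cannot be told apart.

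Trpv1, the capsaicin receptor, stood at 257, 477, 872 and 471 in SNL replicates 1 to 4, against 3194, 2519, 2423 and 2999 in Sham replicates 1 to 4. The highest SNL library was SNL replicate 3, and it lay below the lowest Sham library by a wide margin. The log2 fold change was -2.54 (SE 0.31, adjusted p = 0.000136 by limma), and it ranged from -2.90 to -2.25 over the 23 alternative fits. Trpa1, the irritant receptor found in part of the TRPV1 neurons, stood at 378, 694, 850.0 and 774 in SNL libraries, against 1505, 1241, 941 and 1669 in Sham libraries. The groups did not overlap, with SNL replicate 3 and Sham replicate 3 the nearest to each other (log2 fold change -1.02, SE 0.28, adjusted p = 0.0101).

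Trpm8, the cold receptor, stood at 756, 1297, 1244 and 1072 in SNL libraries, against 1486, 1584, 1334 and 1403 in Sham libraries. The groups were separate by a small margin, and SNL replicate 1 was the lowest (log2 fold change -0.44, SE 0.17, adjusted p = 0.0464). The Trpm8 call was lost in 10 of 23 alternative fits: those leaving out replicate 3 of SNL plus UNC0638, replicate 1 or 4 of SNL, or replicate 1, 2 or 4 of Sham (adjusted p between 0.0598 and 0.126), with TMM scaling (0.0506), without a filter (0.0552), with only both groups fitted (0.0539) and with replicate numbers blocked (0.087). The log2 fold change was -0.27 without SNL replicate 1 and between -0.45 and -0.39 in the other 9 of these fits. Trpc1, which encodes a subunit of receptor-operated channels, stood at 386, 420.1, 445 and 408 in SNL libraries, against 694, 743, 622 and 605 in Sham libraries. All SNL libraries lay in a narrow band below the Sham libraries (log2 fold change -0.68, SE 0.13, adjusted p = 0.0012).

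Trpv4, the osmotic and mechanical channel, was the member that rose. It stood at 25.4, 29.6, 19.5 and 31.9 in SNL libraries, against 11.1, 6.82, 15.6 and 9.99 in Sham libraries. The groups did not overlap (log2 fold change 1.25, SE 0.27, adjusted p = 0.00307), but the level rests on few reads, an estimated 26 to 69 per SNL library and 6 to 13 per Sham library. Only 2 of 4 Sham libraries reached a value of 10, so that the gene passed the filter through the ligated groups. The other 4 members had overlapping libraries. Trpv2 averaged 1342 ± 168 in SNL and 1445 ± 80.2 in Sham libraries (SD, n = 4 each), Trpm2 574 ± 63.9 and 658 ± 74.0, Trpm3 1052 ± 327 and 1331 ± 347, and Trpc6 120 ± 37.0 and 136 ± 46.4 in the same groups. The 95% intervals of their log2 fold changes were -0.37 to 0.15 for Trpv2, -0.48 to 0.09 for Trpm2, -0.81 to 0.11 for Trpm3 and -0.76 to 0.44 for Trpc6. Trpm3 was highest in SNL replicate 3 (1521) and Sham replicate 3 (1831), and its value depended on these libraries. It was -0.19 without Sham replicate 3 (adjusted p = 0.421) and -0.55 without SNL replicate 3 (adjusted p = 0.0253). It was also called without the 3 libraries named above (-0.38, adjusted p = 0.0156) and with the shared library term (-0.35, adjusted p = 0.0126), and in none of the other 20 alternative fits.

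**Figure D1:**
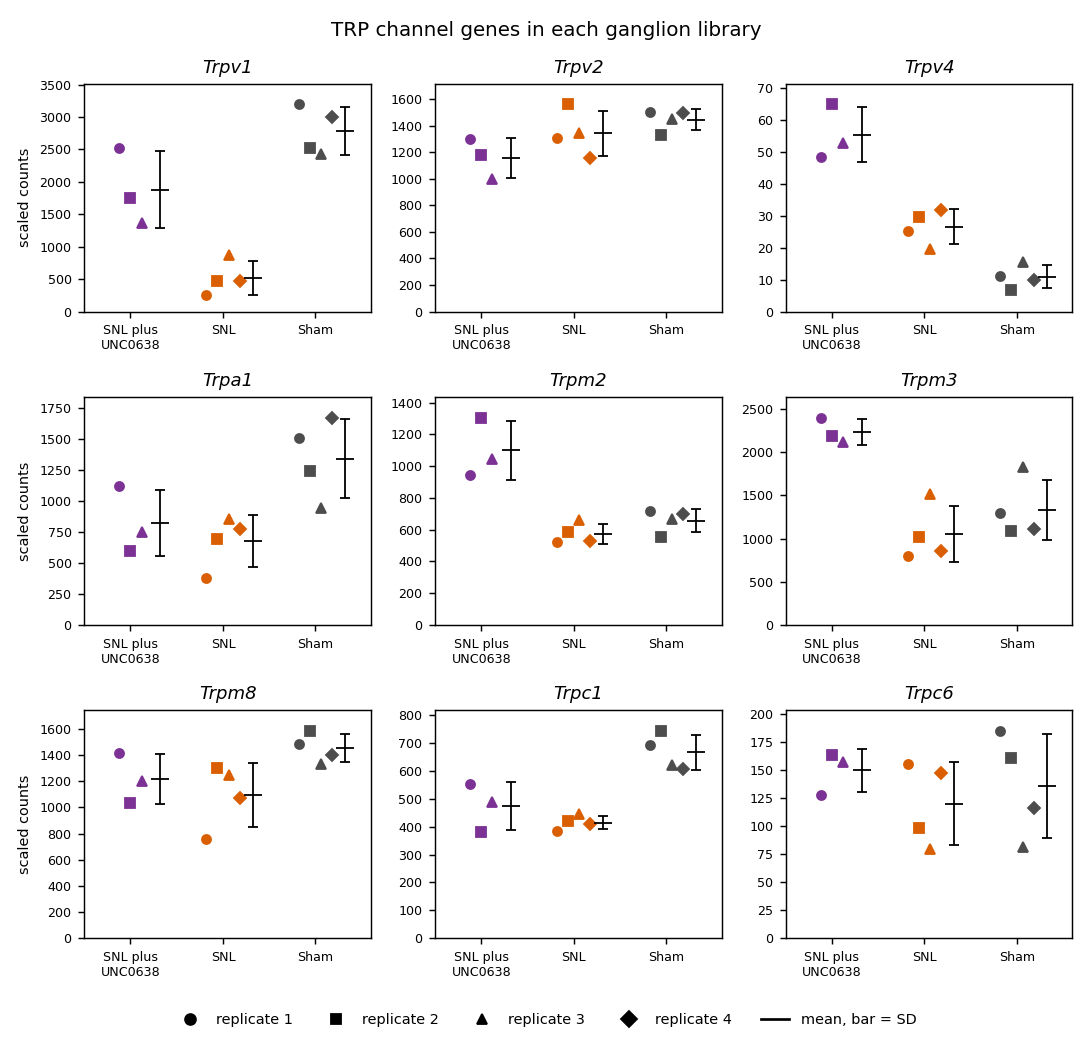
Scaled counts of the 9 TRP channel genes (vertical axis, from 0) in each library of SNL plus UNC0638 (n = 3), SNL (n = 4) and Sham (n = 4) ganglia, with symbols for replicate numbers and bars for mean and SD. Trpv1 lay at 257 to 872 in SNL and 2423 to 3194 in Sham libraries, and Trpm2 at 945 to 1306 in SNL plus UNC0638 libraries, above all others.

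Markers of several cell types moved with ligation. Of 12 nociceptor markers 11 fell, where 23.4% of all genes did. The median log2 fold change of the 12 was -1.58, and Scn11a (-4.00), Calca (-2.85), Tac1 (-2.09) and Isl1 (-1.20) were among those that fell. The summed level of these 12 markers was 51820 to 60370 in SNL and 94030 to 110100 in Sham libraries. Most of the sum in SNL libraries came from Prph, which was not called (35190 to 42540 in SNL and 33410 to 40390 in Sham libraries). The part of these markers in the changes of the channel genes was not tested. Each member was therefore also expressed relative to them, as log2(value + 1) minus the mean of the 12 markers in the same library. This log2 ratio of Trpv1 was -1.42, -0.84, -0.81 and -0.83 in SNL replicates 1 to 4, against -0.49, -0.54, -0.57 and -0.48 in Sham replicates 1 to 4. All SNL libraries were lower. Of all genes tested 92.2% had a ratio without overlap between these groups, and 0.803% had it lower. For the other 8 members the ratio was higher in every SNL library than in every Sham library, as it was for 91.4% of all genes. The ratio of Trpv1 to Trpa1 values was 0.679, 0.687, 1.03 and 0.608 in SNL libraries, against 2.12, 2.03, 2.57 and 1.80 in Sham libraries, and that of Trpv1 to Trpm8 values 0.340, 0.368, 0.701 and 0.439 against 2.15, 1.59, 1.82 and 2.14. Both sets of libraries were separate, as were those of Trpv1 to Trpv2 values, while the ratios of Trpa1 to Trpm8 and of Trpm2 to Trpv2 values overlapped. The ratios depended on the markers chosen. Of 9 pan-neuronal markers 5 fell with ligation and 3 rose (Gap43, Stmn2 and Tubb3), where 23.4% of all genes fell and 24.8% rose. With 9 pan-neuronal in place of nociceptor markers, the SNL minus Sham difference of the Trpv1 log2 ratio was -2.23, against -0.45 with nociceptor markers, and the libraries were again separate (lower for 8.94% of all genes). Of the other 8 members Trpv4 alone was still higher without overlap (28.8% of all genes were), and 7 overlapped. The differences of Trpa1 (-0.70), Trpc1 (-0.36), Trpm8 (-0.12) and Trpm3 (-0.04) turned negative.

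**Figure D2:**
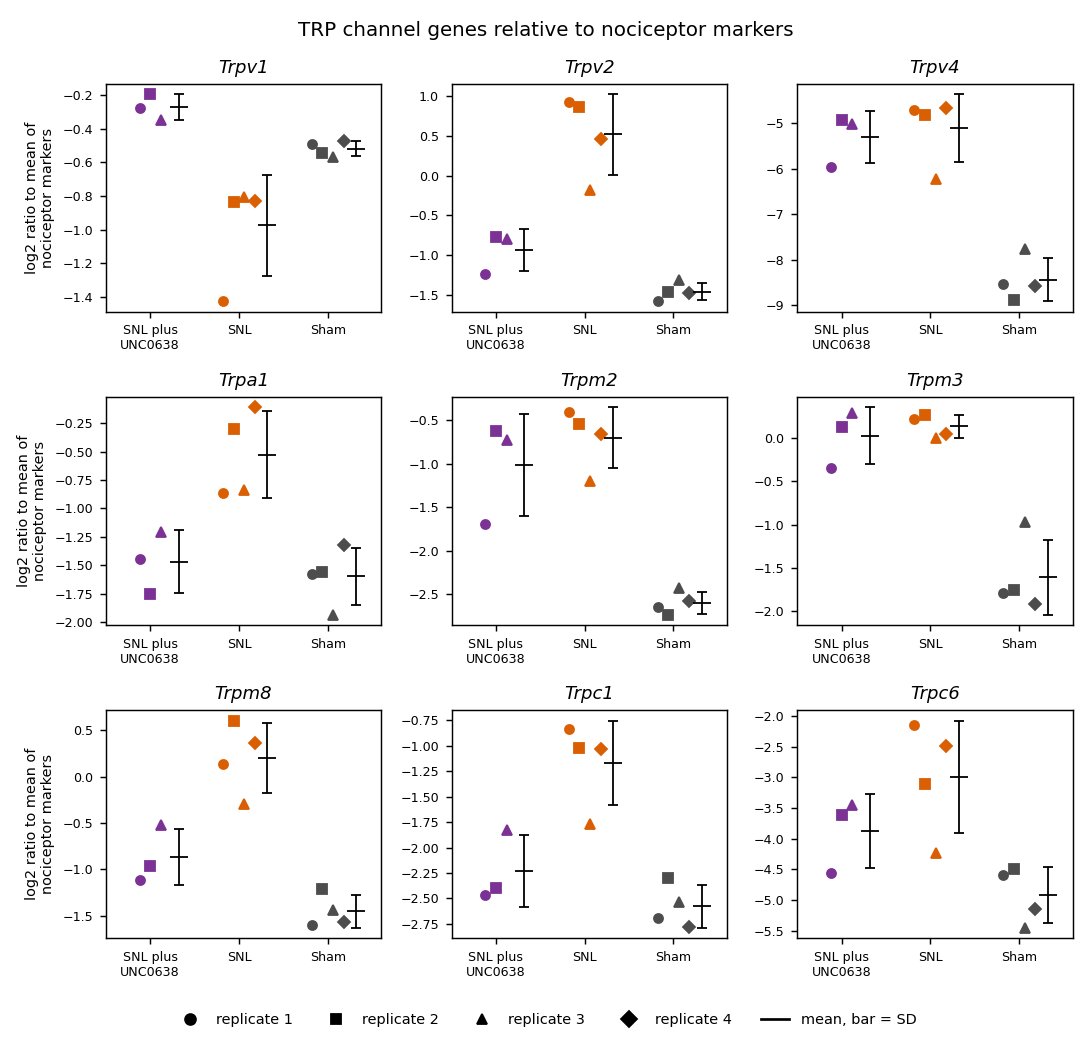
Log2 ratio of each TRP channel gene to the mean of 12 nociceptor markers (vertical axis, log2 scale, not from 0) in each SNL plus UNC0638, SNL and Sham library, with symbols for replicate numbers and bars for mean and SD. Trpv1 lay at -1.42 to -0.81 in SNL libraries, below Sham (-0.57 to -0.48), while the other 8 members lay above Sham in all SNL libraries, which with pan-neuronal markers held for Trpv4 alone of the 8.

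Myeloid markers are set beside Trpm2 and Trpv2, channels that macrophages also express. Of 13 tested, 12 rose with ligation, where 24.8% of all genes did. Among the 12 were Cx3cr1 (log2 fold change 2.07), Tyrobp (2.15), Aif1 (1.71) and Csf1r (1.71). The summed level of the 13 was 8655 to 17220 in SNL and 2524 to 4967 in Sham libraries. Adgre1, the gene of the macrophage antigen F4/80, was listed at 0 in every library of the series. Trpm2 and Trpv2 were not called in this comparison. Markers of fibroblasts and vessels rose in 10 of 10 cases, among them Col1a1 (2.29), Col1a2 (1.80), Col3a1 (2.47) and Lum (2.04). Satellite glia and Schwann markers gave 4 higher and 2 lower of 9, where 24.8% of all genes were higher and 23.4% lower. Gfap (3.36) and Cdh19 (0.69) were among the higher and Fabp7 (-1.48) among the lower. The part of these cells in the rise of Trpv4 was not tested.

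The next comparison asked how ligated ganglia that received the inhibitor differed from those that did not. Trpv1, Trpv4, Trpm2 and Trpm3 were higher and no member was lower: 4 of 9, where 27.8% of all genes tested were called, 13.5% higher and 14.3% lower. The same 4 members had no overlap between libraries, as for 37.6% of all genes (17.7% higher, 19.9% lower). No member was lower at an unadjusted p under 0.05 either, and limma-voom on estimated reads gave the same counts, 4 and 0. The shares of all genes under these other rules are not given here, so these counts cannot be set against them. Trpv1 was 3.84-fold higher, Trpm3 2.19-fold, Trpv4 2.06-fold and Trpm2 1.90-fold. Trpv1 had fallen with ligation, Trpv4 had risen, and Trpm2 and Trpm3 had not been called there. This comparison and the one with Sham share the SNL libraries.

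Trpv1 stood at 2522, 1757 and 1364 in SNL plus UNC0638 replicates 1 to 3, against 257 to 872 in SNL libraries. All 3 libraries with the inhibitor were above the highest SNL library, and replicate 1, with the muscle genes and the low injury genes, was the highest (1.94 in log2, SE 0.33, adjusted p = 0.00232 by limma). Without replicate 1 the log2 fold change was 1.71 (SE 0.36, adjusted p = 0.0105), and with the shared library term 1.60 (SE 0.39, adjusted p = 0.0263). The log2 ratio of Trpv1 to nociceptor markers was -0.28, -0.19 and -0.35 in SNL plus UNC0638 replicates 1 to 3, against -1.42 to -0.81 in SNL libraries. It was higher in all 3. Of all genes tested 62.5% had a ratio without overlap between these groups, 1.59% higher and 60.9% lower, and of the other members Trpv2, Trpa1, Trpm8 and Trpc1 had it lower while 4 overlapped. With pan-neuronal markers Trpm8 (0.54) and Trpc1 (0.54) turned from lower to higher without overlap. Trpm2, Trpm3 and Trpv4 were then also higher without overlap, and Trpv1 (2.31) remained so, as for 32.6% of all genes (1.61% lower). Trpa1 (0.67), Trpv2 (0.15) and Trpc6 overlapped. Of the nociceptor markers 4 were higher and 1 lower of 12, where 13.5% of all genes were higher and 14.3% lower. Scn11a (log2 fold change 3.28), Mrgprd (5.08) and Scn10a (2.68) were higher and Prph (-0.76) lower, and the part of these cells in the level of Trpv1 was not tested. Mrgprd lay at 0 to 27.8 in SNL libraries, with 1 of 4 at 10 or above, so that its fold rests on few reads. Those low values also enter the mean of the 12 markers used for the ratios.

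Trpm2, the oxidative stress channel, stood at 945, 1306 and 1046 in SNL plus UNC0638 replicates 1 to 3, against 522, 583, 661 and 529.9 in SNL libraries. The libraries with the inhibitor were all above the SNL libraries, and above the Sham libraries too (log2 fold change 0.93, SE 0.14, adjusted p = 0.00148). The difference passed the test in each of the 23 alternative fits, with a log2 fold change of at least 0.80. Trpm3, the heat and steroid channel, stood at 2402, 2189 and 2116, against 802, 1024, 1521 and 860.1 in SNL libraries. Again no library overlapped (log2 fold change 1.13, SE 0.23, adjusted p = 0.00486), and SNL replicate 3 was the nearest. With the shared library term the Trpm3 value was 0.60 (SE 0.14, adjusted p = 0.0247).

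Trpv4 stood at 48.4, 65.0 and 52.9 in SNL plus UNC0638 libraries, against 19.5 to 31.9 in SNL libraries. The groups were separate (log2 fold change 1.04, SE 0.29, adjusted p = 0.0227), on an estimated 41 to 54 reads per library with the inhibitor. The Trpv4 call was lost without SNL replicate 1 (log2 fold change 1.03, adjusted p = 0.0546), without SNL plus UNC0638 replicate 2 (0.93, adjusted p = 0.086) or replicate 3 (1.07, adjusted p = 0.0506), with replicate numbers blocked (1.08, adjusted p = 0.0642) and with the shared library term (0.98, adjusted p = 0.129). The summed level of myeloid markers was 10500 to 19140 in SNL plus UNC0638 libraries and 8655 to 17220 in SNL libraries, and 2 of 13 were called, Cd14 (log2 fold change 1.97) and Cd163 (1.36), both higher. Over all genes tested, 13.5% were higher and 14.3% lower in this comparison. Of the injury genes 9 of 10 were lower, with the smallest p for Hspb1 (log2 fold change -1.90). Pan-neuronal markers gave 4 lower, 0 higher and 5 not called of 9, with the smallest p for Tubb3 (-1.23) and a median log2 fold change of 0.06. The 4 were Tubb3, Stmn2, Gap43 and Uchl1, of which Tubb3 (0.49), Stmn2 (0.52) and Gap43 (1.91) had risen with ligation alone. Satellite glia and Schwann markers gave 3 lower of 9, fibroblast and vessel markers 3 lower and 1 higher of 10, and none of 5 skeletal muscle genes was called. The part of these cells in the levels of Trpm2, Trpm3 and Trpv4 was not tested.

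The other 5 members overlapped between the groups. Trpa1 stood at 1118, 597 and 752 in SNL plus UNC0638 libraries and averaged 823 ± 268 there (SD, n = 3), against 674 ± 207 in SNL libraries (SD, n = 4), with a 95% interval of the log2 fold change of -0.35 to 0.95. Trpm8 averaged 1217 ± 189 and 1092 ± 244 in the same groups (-0.22 to 0.57), Trpc1 474 ± 87.2 and 415 ± 24.9 (-0.12 to 0.48), Trpv2 1158 ± 150 and 1342 ± 168 (-0.49 to 0.07), and Trpc6 150 ± 19.0 and 120 ± 37.0 (-0.29 to 1.01). Trpc6 was called with the shared library term (log2 fold change 0.96, adjusted p = 0.0382) and in no other alternative fit.

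**Figure D3:**
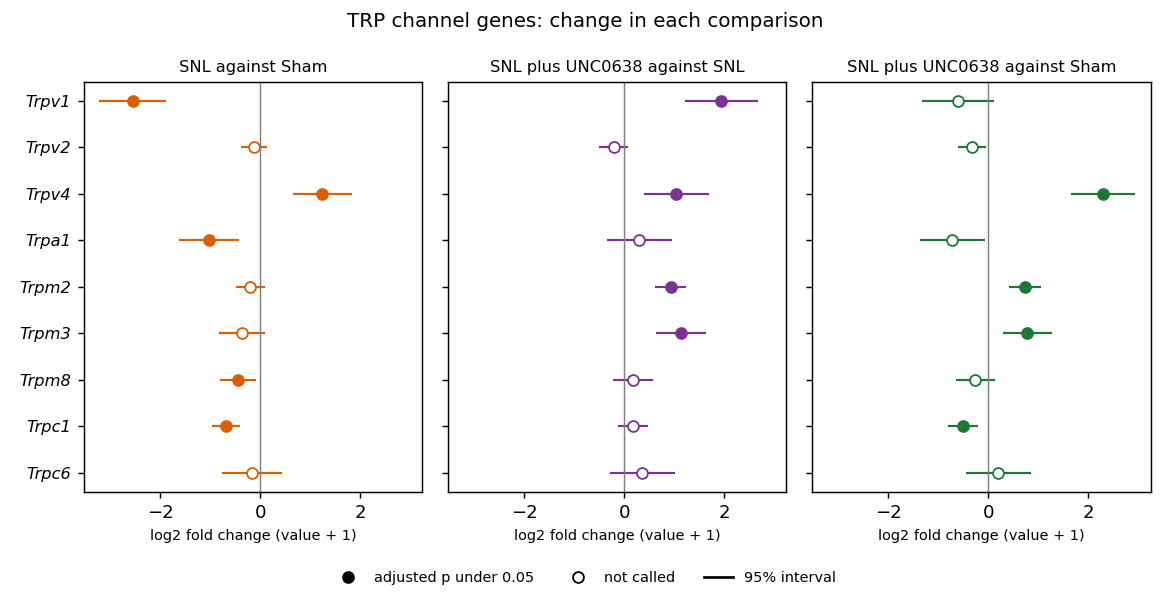
Log2 fold change on the value + 1 scale (horizontal axis) with its 95% interval for the 9 TRP channel genes in the 3 comparisons, filled where the adjusted p was under 0.05. Trpv1 was at -2.54 in SNL against Sham and 1.94 in SNL plus UNC0638 against SNL, and Trpv4 lay above 0 in every comparison.

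SNL plus UNC0638 against Sham shows where ligated ganglia with the inhibitor stood relative to the control. Trpv4, Trpm2 and Trpm3 were higher, by 4.89-fold, 1.66-fold and 1.72-fold, and Trpc1 was lower, by 1.42-fold. These are 4 of 9, where 51.5% of all genes tested were called, 25.5% higher and 26% lower. Libraries did not overlap for these 4 and for Trpv2, as for 48.4% of all genes (23.4% higher, 24.9% lower). Trpm2 had a log2 fold change of 0.73 (SE 0.14, adjusted p = 0.00158) and its 3 libraries, at 945 to 1306, lay above the 551 to 715 of the Sham libraries. Trpm3 lay at 2116 to 2402, against 1085 to 1831 in Sham libraries (log2 fold change 0.78, SE 0.23, adjusted p = 0.0134). Its call was lost with the shared library term (0.24, adjusted p = 0.184). Trpv4 had a log2 fold change of 2.29 (SE 0.29, adjusted p = 0.000193). Myeloid markers were higher in 13 of 13 cases, at summed levels of 10500 to 19140 in SNL plus UNC0638 and 2524 to 4967 in Sham libraries, fibroblast and vessel markers in 7 of 10 and injury genes in 8 of 10 with 1 lower. Nociceptor markers were lower in 7 of 12 cases and pan-neuronal markers in 6 of 9. Their part in these differences was not tested.

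Trpc1 stood at 553, 381 and 488 in SNL plus UNC0638 libraries, against 605 to 743 in Sham libraries. The groups were separate (log2 fold change -0.50, SE 0.14, adjusted p = 0.00967). The call was lost without SNL plus UNC0638 replicate 2 (-0.35, adjusted p = 0.0508). Trpv1, at 1364 to 2522 against 2423 to 3194 in Sham libraries, was not called (log2 fold change -0.60, 95% interval -1.32 to 0.12). Only SNL plus UNC0638 replicate 1 reached the Sham range. Without the 3 libraries named above Trpv1 was lower than in Sham (log2 fold change -0.90, adjusted p = 0.00836), as it was with limma-voom on estimated reads (-0.86, adjusted p = 0.0117) and with only these groups fitted (-0.60, adjusted p = 0.0383). Leaving out the third library with the inhibitor gave -0.39 (adjusted p = 0.414), and 20 of 23 alternative fits gave no call. The log2 ratio of Trpv1 to nociceptor markers was -0.35 to -0.19 in SNL plus UNC0638 and -0.57 to -0.48 in Sham libraries, higher in all 3. Of all genes 49.3% had a ratio without overlap here, 48.2% higher and 1.07% lower. With pan-neuronal markers the Trpv1 libraries overlapped (difference 0.0806), where 56.1% of all genes were higher without overlap and 2.14% lower. Trpa1 averaged 823 ± 268 in SNL plus UNC0638 and 1339 ± 319 in Sham libraries (SD, n = 3 and 4; log2 fold change -0.72, adjusted p = 0.0618). It was called lower in 6 alternative fits, among them those without Sham replicate 3 (-0.88, adjusted p = 0.0287), without SNL replicate 1 (-0.72, adjusted p = 0.0249) or without SNL plus UNC0638 replicate 1 (-0.96, adjusted p = 0.0245). Trpv2 was lower in every SNL plus UNC0638 library (999.7 to 1297) than in every Sham library (1330.35 to 1505) and missed the threshold (log2 fold change -0.33, adjusted p = 0.0512). It was called lower in 7 alternative fits, with adjusted p of 0.00821 (limma-voom) to 0.0494. Trpm8 and Trpc6 were not called (95% intervals -0.65 to 0.13 and -0.45 to 0.85).

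The rest of the TRP family was taken from a list of 19 genes. Of these, 17 were in the table, and 11 passed the filter. With ligation alone 4 of the 11 fell and 3 rose, where 23.4% of all genes were lower and 24.8% higher. Among the fallen genes were Trpc4 and Trpc5, which encode channels opened by receptors coupled to Gq, and Mcoln1, the lysosomal channel mucolipin-1. Trpc4 averaged 3.19 ± 0.489 in SNL and 19.4 ± 3.25 in Sham libraries (SD, n = 4 each; log2 fold change -2.28, SE 0.33, adjusted p = 0.000301), Trpc5 28.7 ± 11.2 and 56.7 ± 10.8 (-1.03), and Mcoln1 351 ± 30.3 and 664 ± 79.5 (-0.91, adjusted p = 0.000159). Trpc4 reached 10 in 2 of 3 SNL plus UNC0638, 0 of 4 SNL and 4 of 4 Sham libraries, so that it passed the filter through the groups where it was high and its fold rests on few reads. The risen genes were Pkd2, the polycystin-2 channel of cilia and the endoplasmic reticulum (log2 fold change 0.97, adjusted p = 0.000304), Mcoln3, another endolysosomal channel (1.97, adjusted p = 0.00199), and Trpv3, a warmth channel of skin (0.75, adjusted p = 0.0372). Mcoln3 was low, at 21.2 ± 9.41 in SNL and 4.42 ± 1.82 in Sham libraries (SD, n = 4 each), and passed the filter through ligated libraries.

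With UNC0638, 2 of the 11 were higher than with ligation alone, among them Trpc4, where 13.5% of all genes were higher. None of the 11 was lower at an unadjusted p under 0.05 or by limma-voom, which called 3 higher. The shares of all genes under these other rules are not given here. Trpc4 stood at 17.9, 13.9 and 6.45 in SNL plus UNC0638 replicates 1 to 3, against 2.74 to 3.75 in SNL libraries. Each library with the inhibitor was higher, replicate 1 most (log2 fold change 1.62, SE 0.36, adjusted p = 0.00787). Without the 3 libraries named above 4 of the 11 were called higher, and with the shared library term 1. The number of all genes called was also larger in the former fit and smaller in the latter, as given in the last section. Against Sham, SNL plus UNC0638 ganglia were higher in Trpv3 (log2 fold change 1.54), Mcoln3 (1.44) and Pkd2 (0.85) and lower in Mcoln1 (-0.70), with adjusted p from 0.000919 to 0.0154. Trpm7, the channel with a kinase domain, was called in no comparison. It averaged 1638 ± 155 in SNL plus UNC0638 (SD, n = 3), 1456 ± 91.0 in SNL and 1436 ± 107 in Sham libraries (SD, n = 4 each), with intervals of -0.20 to 0.24 for SNL against Sham and -0.07 to 0.41 for SNL plus UNC0638 against SNL. Trpm4, the calcium-activated channel, Trpv6, a calcium-selective channel of epithelia, and Mcoln2 were also called in no comparison.

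**Figure D4:**
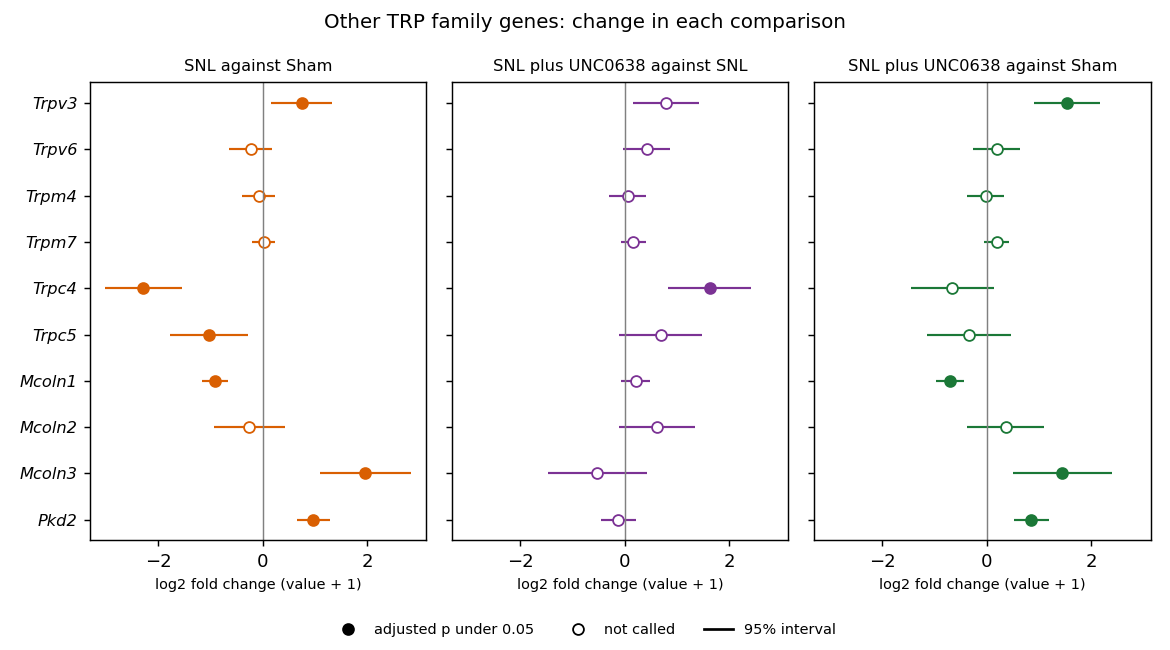
Log2 fold change on the value + 1 scale (horizontal axis) with its 95% interval for 10 other TRP family genes in the 3 comparisons, filled where the adjusted p was under 0.05. Trpc4 lay at -2.28 in SNL against Sham and at 1.62 in SNL plus UNC0638 against SNL.

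Genes whose products regulate TRP channels were taken from a list of 23, of which 22 were tested. With ligation alone 8 fell and 6 rose, where 23.4% of all genes tested were lower and 24.8% higher. Among the fallen were the phospholipase gene Plcb3 (log2 fold change -1.15, adjusted p = 0.000315), Pirt, which encodes a phosphoinositide-binding regulator of TRPV1 (-1.57, adjusted p = 0.000536), and the protein kinase C gene Prkca (-1.34, adjusted p = 0.000697). With UNC0638 against ligation alone 7 were higher and 2 lower, where 13.5% of all genes were higher and 14.3% lower. Prkca (log2 fold change 1.40, adjusted p = 0.00267), the kinase anchor gene Akap5 (2.44, adjusted p = 0.00279), Plcb3 (0.83, adjusted p = 0.00784) and Pirt (1.21, adjusted p = 0.00871) had the smallest p-values. Akap5 reached 10 in 3 of 3 SNL plus UNC0638, 1 of 4 SNL and 3 of 4 Sham libraries. It therefore passed the filter through the groups where it was higher, and its fold rests on few reads. Against Sham, SNL plus UNC0638 ganglia had 6 higher and 3 lower, where 25.5% of all genes were higher and 26% lower. Tmem100, whose product modulates the complex of TRPA1 and TRPV1 (1.70, adjusted p = 0.000593), the tumour necrosis factor receptor gene Tnfrsf1a (1.47, adjusted p = 0.000532) and the cytokine receptor gene Il6st (0.63, adjusted p = 0.00242) were higher, and Cdk5, whose kinase phosphorylates TRPV1, was lower (-1.02, adjusted p = 0.000193).

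Other channels, among them those of heat, acid and touch, were taken from a list of 14, of which 13 were tested. Ligation alone gave 10 lower and 1 higher, Piezo1 (log2 fold change 1.78), where 23.4% of all genes were lower and 24.8% higher. Tmem150c (-2.53), the sodium channel genes Scn11a (-4.00) and Scn10a (-2.97), which are also in the nociceptor list, and the potassium channel gene Kcnk18 (-3.64) had the smallest p-values. With UNC0638 against ligation alone 7 were higher and 0 lower, where 13.5% of all genes were higher and 14.3% lower. Scn11a (3.28), Scn10a (2.68), Kcnk18 (3.03) and Tmem150c (1.54) were first by p. Against Sham 1 was higher, Piezo1 (1.98), and 2 were lower, Tmem150c (-0.99) and P2rx3 (-0.65), which is also in the nociceptor list. Of all genes 25.5% were higher there and 26% lower.

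For each member, the 3 genes with the most similar profile were found by Pearson's r of log2(value + 1) over the 11 libraries, whose 3 groups all genes share. For Trpv1 they were Cbln4 (r = 0.997), Myo1a (0.994) and Unc13c (0.994). For Trpa1 they were RGD1307235 (0.94), A4galt (0.938) and Fgf13 (0.936), and for Trpm8 Plcxd2 (0.927), the sodium channel gene Scn9a (0.909) and Pcdh9 (0.908). Trpm3 went with Xylb (0.986), Zfhx2 (0.986) and Vps13d (0.983), Trpm2 with Trim39 (0.968), Urb1 (0.952) and Heatr2 (0.946), and Trpv4 with Zc3h12a (0.981), the cytokine receptor gene Csf2rb (0.98) and LOC691141 (0.978). The highest values of Trpc1, Trpv2 and Trpc6 were with Efr3a (0.991), Rtn2 (0.94) and Mccc1 (0.924). These values describe the 11 libraries and were not tested.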

How the data were processed

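Libraries of 11 rat dorsal root ganglion samples were made with a stranded, ribosome-depleted kit and read from a single end. Per the labels, RNA was extracted with Trizol or RNeasy, without saying which sample received which. The authors aligned reads to rn4 with TopHat2 2.0.9 and named Cuffdiff 2.1.1, per the submitters' processing notes. How genes were counted, with or without strand, is not stated. As deposited, the signal of a gene is its count after scaling by 1 factor per library, read from the values. Low values were multiples of 1 step (0.4287 to 1.558) for 99.1% to 99.7% of them, within 1% of the nearest whole number, and reads were estimated from that step; they are no deposited counts, so that count tests were not run.

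Genes at 10 or above in 3 or more libraries (12085 of 16811 rows) were tested with limma 3.58.1 (R 4.3.3, statmod 1.5.0) on log2(value + 1), with 1 mean per group over all 11 libraries and eBayes (trend, robust). Tests were two-sided, p-values were adjusted over all genes by Benjamini-Hochberg, and adjusted p under 0.05 was called. Sdc2 and Pcdhgc5 were removed, as in earlier processing of these data, a choice made with values in view. The fit was tested on simulated data. Piezo1 and Adgre1 were matched by older symbols. Transcript lengths were not used here, so levels of different genes are not ranked. Members and lists were chosen with earlier results of these data known; named genes are all members, other TRP genes past the filter, at most 4 called genes with the smallest p per list and the 3 most similar profiles per member, with further list genes named where a count is 1 or 2. A few genes that this rule names are not reported here. Alternatives covered scaling, filter, pseudocount, eBayes, groups fitted, a replicate block, a shared library term and each library left out; limma-voom and leaving out 3 libraries together were added after seeing the data.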

Additional observations from a re-analysis of the deposited data

How the results depend on the processing

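Of 618 alternative values for the 9 members, 577 kept direction and side of the threshold, 17 lost a call, 21 gained one and 3 changed sign, all 3 for Trpc6, which was not called: 0.00984 without Sham replicate 1 and 0.0175 without SNL replicate 3 (SNL against Sham, -0.38 to 0.0175 with 1 library left out), and -0.0219 without Sham replicate 3 (SNL plus UNC0638 against Sham, -0.0219 to 0.37). For SNL plus UNC0638 against SNL, 3356 genes were called, 2126 with the replicate block, 1286 with the shared library term, 5315 without the 3 libraries in doubt and 2078 to 4466 with 1 library left out (2078 without SNL replicate 1, 2098 without SNL plus UNC0638 replicate 2). Other TRP genes called there numbered 2, and 1 with a filter at 50, 1 with the library term and 4 without the libraries in doubt. Members called against Sham with UNC0638 numbered 4 (6220 of 12085 genes), 7 with limma-voom (7690 genes), 7 without the libraries in doubt (7753 genes) and 3 to 6 with 1 library left out (4671 to 6956 genes). With pan-neuronal markers the Trpv1 log2 ratio differences were -2.23 (SNL minus Sham), 2.31 (SNL plus UNC0638 minus SNL) and 0.0806 (SNL plus UNC0638 minus Sham, where libraries then overlapped), in place of -0.45, 0.70 and 0.25. For Sham and SNL replicates 1 to 4 the r of deviations of libraries with the same number was 0.187, 0.00452, 0.431 and 0.0964. For replicates 1 to 3 of SNL and SNL plus UNC0638 it was -0.319, -0.0849 and -0.446, and for those of Sham and SNL plus UNC0638 0.0113, -0.245 and -0.104. With so few libraries per group these values cannot settle whether replicate numbers pair libraries. The replicate block ended the calls of Trpm8 (SNL against Sham) and Trpv4 (SNL plus UNC0638 against SNL) and changed no other member's call. The planned count tests were not run on scaled values. The cause of these shifts was not tested. Of the 9 members depth limits Trpv4 most, at 6 to 69 estimated reads per library.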
